A study of Rattus norvegicus with 34 samples.

Results

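The comparison described here is between NRK-52E cells labelled as treated with monuron for 24 h and NRK-52E cells kept in DMSO for the same time. It rests on the 6 arrays whose titles give NRK-52E cells and 24 h, out of 34 arrays in the series, with 3 arrays labelled monuron and 3 labelled DMSO. The remaining arrays are 12 of the same cells at 6 h and 72 h, 8 of rat kidney and 8 of rat liver. NRK-52E is a clonal epithelial line from normal rat kidney, labelled here as proximal tubule cells with the genotype Osborne-Mendel. The cells were grown in DMEM with 10% fetal calf serum and antibiotics, brought to confluence on 6-well plates and exposed in DMSO (0.1%), and the control cells received DMSO alone. Total RNA was taken with Trizol, and the protocol states 3 studies at each time point. The groups are named monuron and DMSO after the sample titles and treatment labels. The protocol for the cells names a different compound, chlorothalonil, at 1.1 µM, described as the concentration that inhibits by 10% at 72 h, and the monuron concentration used on the cells is not given in the sources used here. Which compound these cells received is therefore not settled by the labels, and each difference below is that between the arrays labelled monuron and those labelled DMSO.

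Monuron is a phenylurea herbicide that blocks electron transport in plant photosystem II. Several of the gene groups below belong to the integrated stress response (ISR), in which kinases that sense amino acid shortage, misfolded protein, lack of heme or double-stranded RNA phosphorylate the translation factor eIF2. General protein synthesis then falls while translation of the transcription factor ATF4 rises, and ATF4 with C/EBP partners binds composite DNA elements in genes for amino acid synthesis, amino acid uptake and tRNA charging. Renal proximal tubule cells reabsorb amino acids, glucose and small proteins from the filtrate and are a common site of damage by foreign compounds.

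Expression is on the log2 scale, where a difference of 1 is a 2-fold change, and limma's moderated standard error (SE), from 3 arrays in each group, stands beside the differences. A difference is called higher or lower where limma's adjusted p is under 0.05 over the 8868 genes tested, those above the median of their own array on at least 3 of the 6 arrays. That filter lets in a gene that is above the median in 1 group alone, and the value of such a gene in the other group is close to background. Correlations over all probe sets lay between 0.997 and 0.9988 within a group and between 0.994 and 0.9963 across groups. The array medians lay between 4.13 and 4.18, and the array with the largest mean absolute deviation from its group mean was DMSO replicate 3 (0.107, against 0.067 to 0.093 for the others). The titles call the arrays biological replicates and say nothing more of their origin, so the p-values measure the spread between these 3 cultures a group. Arrays have no read depth, and their number limits the precision.

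The labelled cell type was set against marker genes. Of 15 proximal tubule markers 14 had a probe set, and only Ggt1 and Mme lay above the array median on all 6 arrays. The other 12, among them the endocytic receptors Lrp2 and Cubn, the phosphate transporter Slc34a1 and the transcription factor Hnf4a, lay below it on every array. Of 9 epithelial markers the keratin Krt8 and the junction genes Tjp1 and Ocln lay above the median on all 6 arrays, while Cdh1, Epcam and Pax8 did not. Krt8 was the epithelial marker that passed the test, with a difference of -0.28 (adjusted p = 0.00118). Of 12 mesenchymal markers 7 lay above the median on all 6 arrays. Among these, Vim, at 15.11 to 15.33, did not pass the test (adjusted p = 0.0727). With monuron 4 of the 7 (Col1a1, Col1a2, Acta2 and Tagln) were higher and 1 (Col3a1) was lower, where 18.3% and 17.9% of all genes tested were higher and lower. The summed level of all 12 mesenchymal markers, those below the median included, was 91.2 to 91.5 on the monuron arrays and 89.1 to 89.9 on the DMSO arrays. None of 8 distal tubule markers and none of 5 immune markers lay above the median on all 6 arrays. Of the podocyte markers Wt1 did, with a difference of -0.46 (adjusted p = 0.0136), and of the endothelial markers Tek was tested, with a difference of -1.03 (adjusted p = 0.0293). In bulk RNA a change in the share of cells of a state and a change in RNA per cell cannot be told apart.

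At 24 h the cells differed across a wide range of genes, mostly by small amounts. Of the 8868 genes 3212 (36.2%) passed the test, 1626 (18.3%) higher and 1586 (17.9%) lower with monuron. The median absolute difference of the genes called was 0.38, and 2207 of them differed by less than 0.5. A difference of at least 1 was reached by 173 genes, 117 higher and 56 lower. The 3 monuron values and the 3 DMSO values did not overlap for 4408 genes (49.7%), among them 3165 of the 3212 genes called. When each array was left out in turn, 1862 genes (21%) passed in the fit of 6 arrays and in all 6 fits of 5 arrays, 963 higher and 899 lower. The count was 2058 without DMSO replicate 1 and 3424 without DMSO replicate 3. In a fit of all 18 cell arrays, which takes its spread partly from the 72 h arrays, 1221 of the 8868 genes passed (13.8%), 575 higher and 646 lower. List counts in that fit are given below and are to be read beside these counts over all genes.

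**Figure D1:**
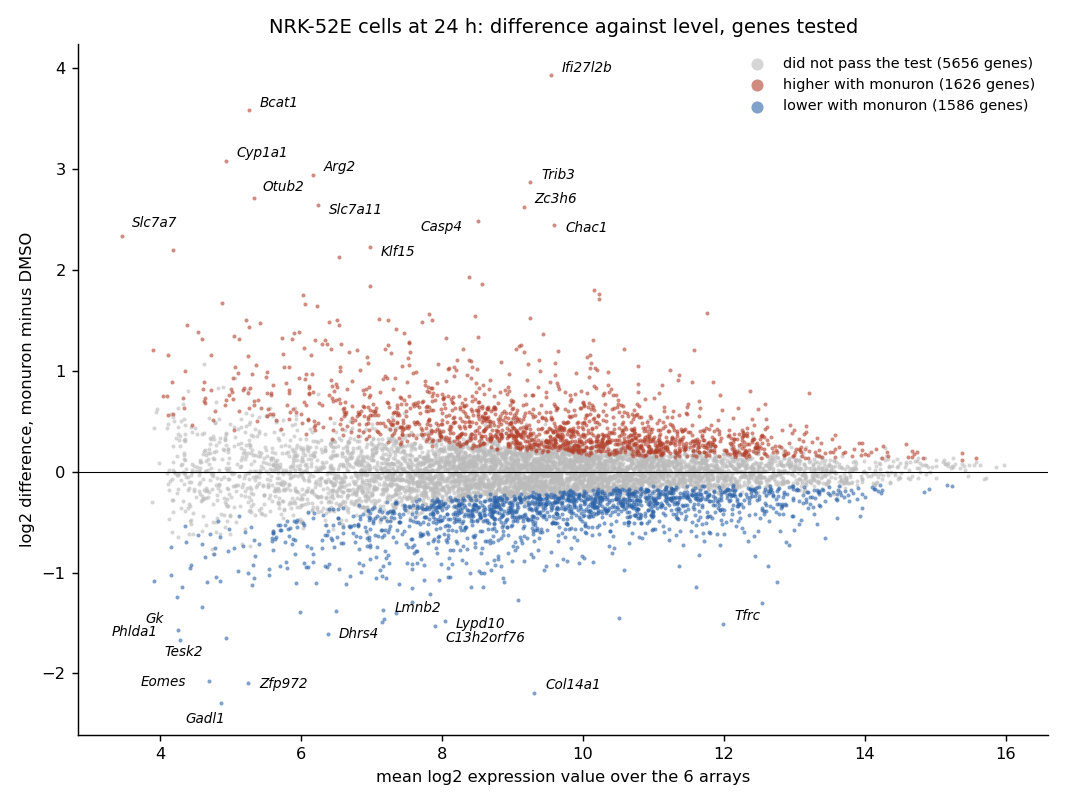
Log2 difference between monuron and DMSO at 24 h (vertical axis) against the mean log2 expression value over the 6 arrays (horizontal axis) for the 8868 genes tested, with genes that passed the test in red (1626 higher) and blue (1586 lower) and the genes with the largest differences labelled. Ifi27l2b has the largest positive difference, and Col14a1 and Tfrc combine a large negative difference with a high level.

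The largest increases joined an interferon-inducible gene, amino acid stress genes and a xenobiotic enzyme. Ifi27l2b, a member of the family of interferon-inducible Ifi27 genes, had values of 11.55, 11.46 and 11.52 with monuron against 7.54, 7.80 and 7.40 with DMSO. The groups lay far apart, with a difference of 3.93 (SE 0.1, adjusted p = 9.49e-08), a 15.2-fold change. Ifi27, a gene of the same family, differed by -0.04 (adjusted p = 0.805). Zc3h6, a zinc finger protein gene, was 10.56, 10.56 and 10.31 with monuron against 7.77, 7.85 and 7.92 with DMSO. Its difference was 2.63 (SE 0.09, adjusted p = 3.7e-07). Casp4, an inflammatory caspase that acts in pyroptosis, rose from 7.16, 7.38 and 7.25 with DMSO to 9.78, 9.60 and 9.88 with monuron (difference 2.49, SE 0.1, adjusted p = 8.13e-07), and its adjusted p was 0.0549 in the fit of 18 arrays. Otub2, a deubiquitinase gene, rose from 3.98, 3.78 and 4.15 with DMSO to 6.88, 6.49 and 6.67 with monuron (difference 2.71, SE 0.164, adjusted p = 1.11e-05), and its DMSO values were below the array medians. Klf15, a transcription factor of amino acid and glucose metabolism, rose from 5.81, 5.76 and 6.03 with DMSO to 8.10, 8.16 and 8.01 with monuron (difference 2.22, SE 0.116, adjusted p = 4.25e-06). The other genes among the 12 largest increases by the naming rule are described with their groups below.

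Among the largest decreases, Col14a1 and Tfrc had high control levels, whereas several others fell to about the array median or below it. Col14a1, a collagen that associates with fibrils, was 8.25, 8.11 and 8.27 with monuron against 10.35, 10.42 and 10.45 with DMSO. The difference was -2.20 (SE 0.075, adjusted p = 3.7e-07), a 4.58-fold fall. Tfrc, the transferrin receptor that takes up iron, was 11.28, 11.10 and 11.32 with monuron against 12.61, 12.66 and 12.98 with DMSO. Its difference was -1.51 (SE 0.098, adjusted p = 1.79e-05). Groups that do not overlap were a condition for naming the largest differences. Lmnb2, a nuclear lamin gene, fell from 8.04, 7.85 and 7.83 with DMSO to 6.50, 6.48 and 6.35 with monuron (difference -1.46, SE 0.108, adjusted p = 3.24e-05). Gadl1, Zfp972, Eomes, Phlda1, Tesk2 and Gk differed by -2.30, -2.09, -2.07, -1.66, -1.65 and -1.57. Their DMSO values lay between 4.56 and 6.71 and their monuron values between 2.89 and 4.39. With values below the array median raised to it, the differences were -1.85, -2.07, -1.58, -0.96, -1.59 and -0.88. Dhrs4, C13h2orf76 and Lypd10 fell by 1.61, 1.52 and 1.48, and the calls of Dhrs4 (adjusted p = 0.052) and Lypd10 (adjusted p = 0.0703) were not reached in the fit of 18 arrays.

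Regulators and effectors of the ISR were mostly higher. Of 29 chosen genes 28 had a probe set and 25 were tested, of which 20 were higher and 1 was lower. The median difference was 0.88, against 0 over all genes tested. In the fit of 18 arrays 11 were higher and 0 lower, and 19 to 20 were higher and 0 to 2 lower in the fits without 1 array. Atf4, the transcription factor at the centre of the response, was 13.61, 13.54 and 13.65 with monuron against 12.83, 12.76 and 12.88 with DMSO, and these groups did not overlap. Its difference was 0.78 (SE 0.049, adjusted p = 1.56e-05), with an adjusted p of 0.112 in the fit of 18 arrays. Atf4 and the other list members named in the text outside the naming rule were chosen after their values were seen. Ddit3, which encodes the stress factor CHOP, was 11.10, 11.02 and 11.04 with monuron against 9.17, 9.29 and 9.29 with DMSO. Every monuron value lay more than 1.7 above every DMSO value, and the difference was 1.80 (SE 0.063, adjusted p = 3.7e-07). Atf3, another stress-induced transcription factor, was 8.19, 7.94 and 8.04 with monuron against 6.54, 6.60 and 6.78 with DMSO, with a difference of 1.41 (SE 0.114, adjusted p = 5.28e-05) in the fit of 6 arrays and an adjusted p of 0.317 in the fit of 18.

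Several effectors that act after ATF4 had larger differences than Atf4. Trib3, a pseudokinase that restrains AKT and ATF4 signalling, was 11.10, 10.62 and 10.34 with monuron against 7.78, 7.70 and 7.97 with DMSO. These values differed by 7.3-fold (difference 2.87, SE 0.167, adjusted p = 9.49e-06), and the 3 monuron arrays spread over 0.76. Chac1, which degrades glutathione, was 11.05, 10.76 and 10.64 with monuron against 8.34, 8.31 and 8.46 with DMSO. Here the difference was 2.44 (SE 0.104, adjusted p = 1.12e-06). Nupr1, a small nuclear stress protein, was 11.12, 11.10 and 11.04 with monuron against 9.26, 9.43 and 9.43 with DMSO, with a difference of 1.72 (SE 0.067, adjusted p = 7.88e-07). Its adjusted p was 1.34e-06 in the fit of 18 arrays. Sesn2, a sestrin that senses leucine and restrains mTORC1, rose by 1.03, Vldlr, a lipoprotein receptor, by 1.31 and Jdp2, a repressor of AP-1 and ATF targets, by 1.04. Ppp1r15a, the regulatory subunit that dephosphorylates eIF2, rose by 0.88, Cebpg, an ATF4 partner, by 0.76 and Herpud1, an ER degradation factor, by 0.91. In the fit of 18 arrays the calls of Vldlr (adjusted p = 0.0511) and Ppp1r15a (adjusted p = 0.171) were not reached. Fgf21, a secreted hormone of the response, was below the array medians on all 6 arrays and was not tested, with values of 3.51, 3.73 and 3.44 with monuron against 2.27, 2.27 and 2.29 with DMSO.

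A composite C/EBP and ATF element was looked for in the 250 bases before the transcription start of each gene with a promoter entry in RefSeq (build GRCr8). The letters searched were TGATGNAA on both strands. They were present in 552 of 19005 promoters (2.9%) and in 127 of the 7489 promoters of genes tested at 24 h (1.7%). Among promoters of genes that were higher 44 of 1356 held them (3.24%), among those of genes that were lower 18 of 1358 (1.33%) and among those of genes not called 65 of 4775 (1.36%). Of promoters of genes that rose by at least 1, 10 of 97 held the letters (10.3%), and of those that fell by at least 1, 1 of 47 (2.13%). In the lists the shares were 6 of 24 for the ISR genes (25%), 3 of 15 for amino acid synthesis (20%), 3 of 16 for amino acid transporters (18.8%), 5 of 19 for tRNA synthetases (26.3%) and 1 of 21 for ER chaperones (4.76%). The share was also 4 of 18 for BCL2 family and death genes (22.2%), of which 3 were higher and 3 lower, and 1 of 8 for AhR and its targets (12.5%). The same window was searched for the AhR core GCGTG and the E-box CACGTG, which were held by 47.6% and 8.26% of promoters of higher genes and by 47.7% and 8.76% of those of lower genes (31.7% and 6.38% of all promoters). Promoters of all genes tested held them in 47.6% and 8.92%, and those of genes not called in 47.5% and 9.15%. A match is a description of the letters and not of binding. Of the members with a match in the first 5 of these lists, 10 are shown, picked after their values were seen: 9 with large differences in their list and Slc38a1, which did not pass the test. They are therefore examples, not a sample of genes with the letters. They are written 5′ to 3′ on the strand of the gene with the match in capitals, which shows the reverse complement of the letters searched where the match lies on the opposite strand.
Trib3 (chr3:161275534-161275580, minus strand): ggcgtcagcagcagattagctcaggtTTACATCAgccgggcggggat
Chac1 (chr3:126795938-126795997, plus strand): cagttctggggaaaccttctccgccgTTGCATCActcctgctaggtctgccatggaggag
Nupr1 (chr1:190645923-190645982, minus strand): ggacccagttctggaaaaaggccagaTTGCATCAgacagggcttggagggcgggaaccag
Jdp2 (chr6:110993549-110993590, plus strand): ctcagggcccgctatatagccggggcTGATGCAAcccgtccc
Herpud1 (chr19:10614858-10614917, minus strand): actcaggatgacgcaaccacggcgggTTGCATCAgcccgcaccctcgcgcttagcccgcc
Pck2 (chr15:32997603-32997647, plus strand): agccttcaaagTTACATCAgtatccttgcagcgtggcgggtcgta
Mars1 (chr7:65023754-65023796, minus strand): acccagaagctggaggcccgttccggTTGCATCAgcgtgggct
Iars1 (chr17:15193653-15193702, minus strand): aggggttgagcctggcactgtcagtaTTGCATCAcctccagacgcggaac
Slc7a1 (chr12:11664432-11664487, plus strand): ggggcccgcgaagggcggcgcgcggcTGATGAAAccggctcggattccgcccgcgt
Slc38a1 (chr7:129681510-129681569, minus strand): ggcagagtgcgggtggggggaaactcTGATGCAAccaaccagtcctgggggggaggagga
The match began 21 bases before the start in Trib3, 55 in Nupr1, 167 in Chac1 and 16 in Jdp2. Mars1, Iars1 and Slc7a1 held it within 17, 24 and 30 bases of the start. Among the matches not shown, Aars1, Nars1, Tars1, Got1 and Slc1a4 rose by 0.40, 0.52, 0.20, 0.44 and 0.56, and there is no test of Fgf21 or Pycr1. Slc38a1, an amino acid transporter, differed by 0.04 (adjusted p = 0.744). The letters were not in this window of Atf4, Ddit3 or Asns, which says nothing of other sites. Atf3 had no promoter entry.

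Enzymes that make amino acids were higher in nearly the whole list. Of 18 chosen genes 16 had a probe set and 14 were tested, of which 13 were higher and 0 lower, with a median difference of 0.72. The fits without 1 array called 11 to 13, and the fit of 18 arrays called 5. Asns, which makes asparagine, was 12.64, 12.48 and 12.49 with monuron against 10.96, 10.90 and 11.04 with DMSO. Its groups were separated by more than 1.4, with a difference of 1.57 (SE 0.062, adjusted p = 7.88e-07). Cth, which makes cysteine from cystathionine, was 11.14, 11.04 and 11.12 with monuron against 9.29, 9.39 and 9.35 with DMSO (difference 1.76, SE 0.061, adjusted p = 3.7e-07). Pck2, the mitochondrial phosphoenolpyruvate carboxykinase, was 11.18, 11.18 and 11.24 with monuron against 10.01, 9.93 and 9.99 with DMSO, with almost no spread within either group (difference 1.22, SE 0.056, adjusted p = 1.79e-06). Bcat1, the cytosolic branched-chain aminotransferase, was 7.39, 7.23 and 6.54 with monuron against 2.97, 3.18 and 4.26 with DMSO. One DMSO array was above its median and the other 2 below, so the 12-fold difference is against values near background (difference 3.58, SE 0.338, adjusted p = 0.000107, or a difference of 2.87 with values below the array median raised to it). The serine and one-carbon enzymes Mthfd2, Shmt2, Psat1, Phgdh and Psph rose by 1.36, 0.83, 0.61, 0.59 and 0.51, and in the fit of 18 arrays none of the 5 passed (adjusted p from 0.112 to 0.345). Aldh18a1, the first enzyme of proline synthesis, rose by 0.76. Glul, glutamine synthetase, did not pass the test, with a difference of -0.13 (adjusted p = 0.198).

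Amino acid transporters divided more. All 20 chosen genes had a probe set and 13 were tested, of which 8 were higher and 1 was lower, with a median difference of 0.56. The 8 increases were found in each fit without 1 array, and 2 were called in the fit of 18 arrays. Slc7a11, the cystine and glutamate exchanger xCT, was 7.86, 7.32 and 7.51 with monuron against 4.25, 5.27 and 5.25 with DMSO. The lowest monuron value lay about 2 above the highest DMSO value (difference 2.64, SE 0.268, adjusted p = 0.000154), and the adjusted p was 0.0626 in the fit of 18 arrays. Slc3a2, the heavy chain that carries xCT and the large neutral transporter, was 12.38, 12.06 and 12.11 with monuron against 10.94, 11.06 and 10.92 with DMSO (difference 1.21, SE 0.085, adjusted p = 2.74e-05). Slc7a5, the large neutral transporter LAT1, was 9.48, 9.50 and 9.50 with monuron against 7.76, 7.31 and 7.83 with DMSO (difference 1.86, SE 0.129, adjusted p = 2.65e-05), with an adjusted p of 0.0528 in the fit of 18 arrays. Slc7a7, the light chain of the cationic exchanger y+LAT1, was 4.85, 4.47 and 4.58 with monuron against 2.26, 2.34 and 2.28 with DMSO. All of its DMSO values were at background, and its difference of 2.34 became 0.48 (adjusted p = 0.0351) when values below the array median were raised to it. The glycine transporter Slc6a9 rose by 1.23, the cationic transporter Slc7a1 by 0.87 and the neutral transporter Slc1a4 by 0.56. The glutamate transporter Slc1a3 fell by 0.35 (adjusted p = 0.00315).

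Of 24 cytosolic aminoacyl-tRNA synthetase genes, which encode the enzymes that load amino acids onto tRNA, 22 were tested, 16 were higher and 1 was lower. The median difference was 0.42, the fits without 1 array called 13 to 16 higher, and the fit of 18 arrays called 3 higher and 1 lower. Mars1, for methionine, was 12.28, 12.19 and 12.38 with monuron against 11.42, 11.32 and 11.44 with DMSO (difference 0.89, SE 0.061, adjusted p = 2.54e-05). Sars1, for serine, was 12.04, 11.99 and 11.94 with monuron against 11.07, 11.08 and 11.16 with DMSO (difference 0.89, SE 0.053, adjusted p = 9.9e-06). Both groups were tight, and neither gene overlapped between groups. Cars1, Lars1, Eprs1, Wars1 and Iars1 rose by 0.88, 0.76, 0.67, 0.66 and 0.57, and of these 5 only Cars1 (adjusted p = 0.0417) was called in the fit of 18 arrays. Kars1, for lysine, differed by 0.03 (adjusted p = 0.706), Rars1, for arginine, by 0.09 (adjusted p = 0.279) and Hars1, for histidine, by 0.19 (adjusted p = 0.281). The scaffold gene Aimp2 fell by 0.35 (adjusted p = 0.00305).

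**Figure D2:**
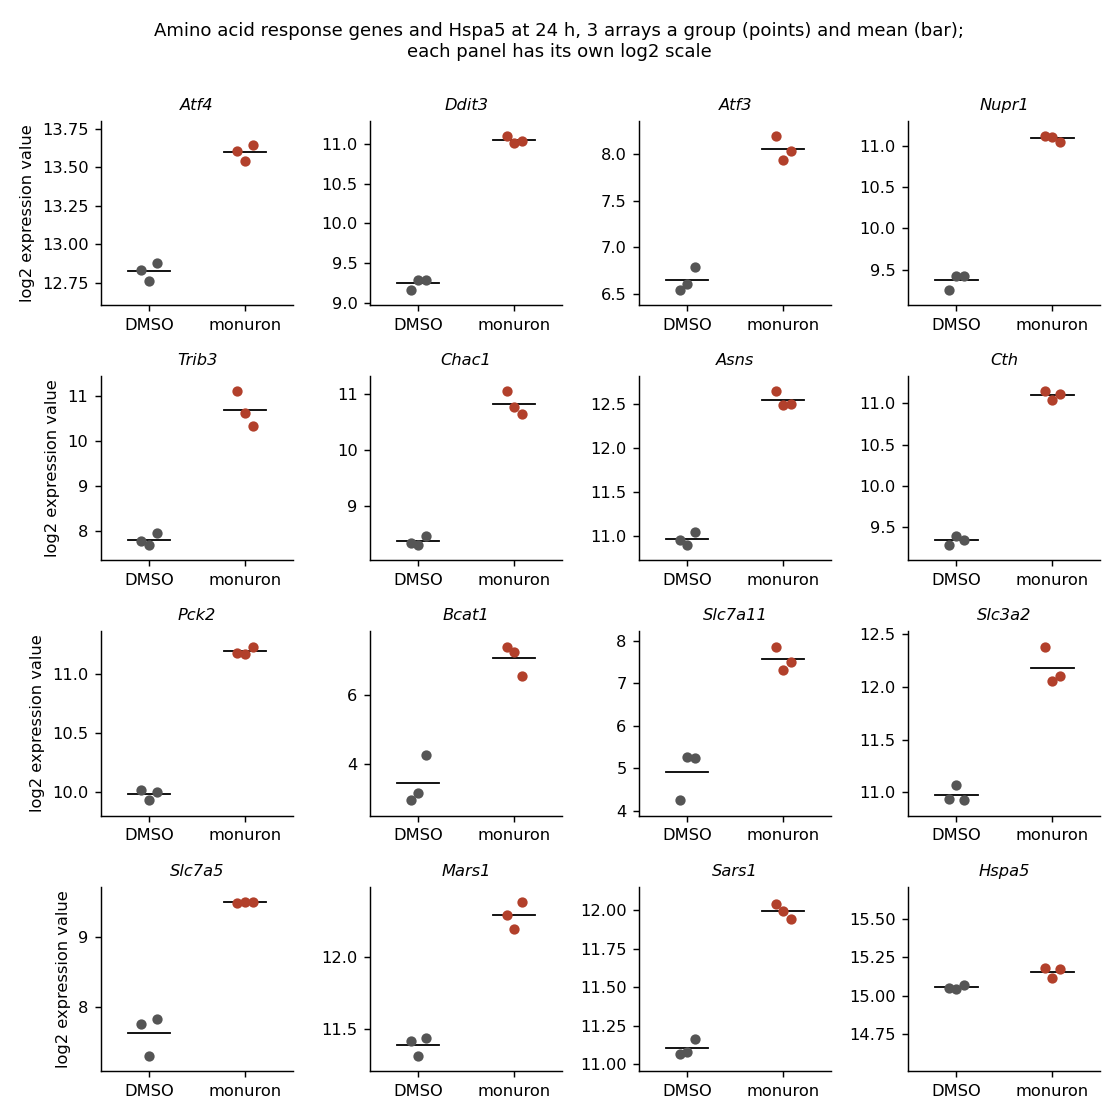
Log2 expression values of 16 genes at 24 h on the 3 DMSO arrays (grey) and the 3 monuron arrays (red), with the group mean as a bar and a scale of its own in each panel. In each of the 16 panels every monuron value lies above every DMSO value, also for the chaperone Hspa5, which differs by 0.10 and did not pass the test. The genes were picked with earlier results of these data known. Over all genes tested the groups did not overlap for 49.7%.

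The ER chaperones and genes of the unfolded protein response moved less. All 25 members with a probe set were tested, 8 were higher and 0 lower, and the median difference was 0.10. The share higher was 32%, against 18.3% of all genes tested. Hspa5, the ER chaperone BiP, was 15.18, 15.11 and 15.17 with monuron against 15.05, 15.04 and 15.07 with DMSO and did not pass the test (difference 0.10, SE 0.039, adjusted p = 0.0664). Hsp90b1 differed by 0.05 (adjusted p = 0.331) and Xbp1, the spliced transcription factor, by 0.23 (adjusted p = 0.0747). The members that passed included Atf6, an ER stress sensor, at 0.64, Dnajb9, a BiP cochaperone, at 0.53 and Pdia4, a disulfide isomerase, at 0.20. In the fit of 18 arrays 3 of the 8 increases were called.

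A xenobiotic gene stood among the largest increases while the list around it did not move as a whole. Cyp1a1, the cytochrome P450 that the aryl hydrocarbon receptor (AhR) induces, was 6.42, 6.52 and 6.47 with monuron against 3.79, 3.39 and 2.98 with DMSO. Its 3 DMSO values lay below the array medians, and the difference was 3.08 (SE 0.207, adjusted p = 2.28e-05), or 2.32 with those values raised to the median. At the other times the mean of Cyp1a1 was lower with monuron. It was 3.01 against 4.67 with DMSO at 6 h, where the DMSO values were 5.555, 3.573 and 4.89, and 2.62 against 3.785 at 72 h. The gene was not tested at 6 h or at 72 h. Without DMSO 72 h replicate 3 the difference changed by -4.17 from 24 h to 72 h (adjusted p = 0.000125). Of 10 genes chosen for AhR and its targets 6 were tested, 3 were higher and 1 was lower, with a median difference of 0.15, against 2 and 1 in the fit of 18 arrays. Tiparp, an AhR-induced ADP-ribosyltransferase, rose by 0.55 (adjusted p = 0.000141), and Nqo1, a quinone reductase, by 0.21 (adjusted p = 0.0139). Cyp1b1, a related P450, fell by 0.65 (adjusted p = 0.0319), a call kept in 2 of the 6 fits without 1 array. Cyp1a2 and the receptor repressor Ahrr were near background on all arrays, with means of 1.88 to 1.99. No promoter entry was found for Cyp1a1.

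Of 12 glutathione and glucuronosyl transferase genes tested, which conjugate foreign compounds, 5 were higher and 0 lower, with a median of 0.09. The share higher was 41.7%, against 18.3% of all genes tested. Mgst2 rose by 1.51 (SE 0.273), Gsta1 by 0.80 and Gstt2 by 0.78 (SE 0.067, adjusted p = 6.66e-05), and these 3 calls were also made in the fit of 18 arrays. Among 22 targets of NRF2, the factor that answers oxidants, 7 were higher and 5 lower, with a median of 0.09. That is 31.8% and 22.7%, against 18.3% and 17.9% of all genes tested. Without DMSO replicate 1 the number higher was 4, and the fit of 18 arrays called 2 higher and 2 lower. Slc7a11, described above, belongs to this list too, and the aldo-keto reductase Akr1b8 rose by 0.88 and Nfe2l2, which encodes NRF2, by 0.34. Hmox1, heme oxygenase, was 5.84, 5.64 and 5.78 with monuron against 5.80, 5.78 and 5.64 with DMSO, with overlapping groups (difference 0.02, adjusted p = 0.936). Pgd, of the pentose phosphate pathway, fell by 0.51 and Gclc, the catalytic subunit for glutathione synthesis, by 0.55.

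Of 19 circadian genes 12 were tested, 7 were higher and 1 was lower, the median difference was 0.52, and 5 higher and 0 lower were called in the fit of 18 arrays. Per2, a repressor of the clock loop, was 7.84, 7.40 and 7.56 with monuron against 5.40, 5.39 and 5.63 with DMSO. That is 4.36-fold higher without overlap (difference 2.12, SE 0.145, adjusted p = 2.45e-05). Dbp, a clock-controlled transcription factor, rose from 7.40, 7.48 and 7.29 with DMSO to 8.80, 8.76 and 8.59 with monuron (difference 1.33, SE 0.098, adjusted p = 3.24e-05). Per3 rose by 1.28, Nfil3, a repressor of Dbp targets, by 1.02, Nr1d2, a nuclear receptor of the loop, by 0.84 and Cry1 by 0.66, the last with an adjusted p of 0.0996 in the fit of 18 arrays. Bmal1, the activator of the loop, differed by -0.02 (adjusted p = 0.953) and Per1 by 0.21 (adjusted p = 0.378). Tef, a relative of Dbp, fell by 0.52 on the probe set used and was higher by 0.45 (adjusted p = 0.0121) on another of its probe sets, so its direction is not settled.

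DNA replication and mitosis genes were mostly lower. Of 43 replication and S phase genes tested 23 were lower and 1 was higher, with a median of -0.39, and 18 to 30 were lower in the fits without 1 array. The fit of 18 arrays called 17 lower and 0 higher. Ccne1, cyclin E1, which drives entry into S phase, was 8.29, 8.39 and 8.31 with monuron against 9.51, 9.38 and 9.28 with DMSO. The lowest DMSO value exceeded the highest monuron value by 0.88 (difference -1.06, SE 0.085, adjusted p = 5.11e-05). Mcm7, a subunit of the replicative helicase, was 9.69, 9.73 and 9.66 with monuron against 10.55, 10.71 and 10.50 with DMSO (difference -0.90, SE 0.07, adjusted p = 4.6e-05). Mcm2, Mcm4, Mcm5 and Mcm6, further helicase subunits, fell by 0.60, 0.44, 0.58 and 0.49. Fen1, a flap endonuclease, fell by 0.81, Gmnn, the inhibitor of relicensing, by 0.65 and Pcna, the sliding clamp, by 0.36. Rfc4, a clamp loader subunit, was the member that rose (0.28, adjusted p = 0.017).

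Of 41 mitosis and spindle genes tested 26 were lower and 1 was higher, with a median of -0.36. The fits without 1 array called 20 to 29 lower, while the fit of 18 arrays called 3. Cdc20, which activates the anaphase-promoting complex, was 9.32, 9.50 and 9.45 with monuron against 10.12, 10.06 and 10.03 with DMSO (difference -0.65, SE 0.07, adjusted p = 0.000216). Ccnb1, cyclin B1, fell by 0.51 and Plk1, a mitotic kinase, by 0.55, the latter with an adjusted p of 0.156 in the fit of 18 arrays. Mki67, the proliferation marker Ki-67, was 11.31, 11.20 and 11.24 with monuron against 11.58, 11.46 and 11.46 with DMSO, a fall of 0.25 (SE 0.057, adjusted p = 0.00896) that had an adjusted p of 0.199 in that fit. Cdk1, the mitotic kinase partner of cyclin B, differed by -0.02 (adjusted p = 0.723). Spc24, of the kinetochore, rose by 0.53. Of 15 targets of p53 that were tested 3 were higher (20%) and 0 lower, against 18.3% and 17.9% of all genes tested. The median was 0.13, and the fit of 18 arrays called 1 higher. The cell cycle inhibitor Cdkn1a differed by 0.18 (adjusted p = 0.102) and the p53 ligase Mdm2 by 0.13 (adjusted p = 0.178). The 3 increases were Sesn2 and Bbc3, also in the ISR list, and Gadd45a, a growth arrest gene, which rose by 0.80 and had an adjusted p of 0.193 in the fit of 18 arrays.

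**Figure D3:**
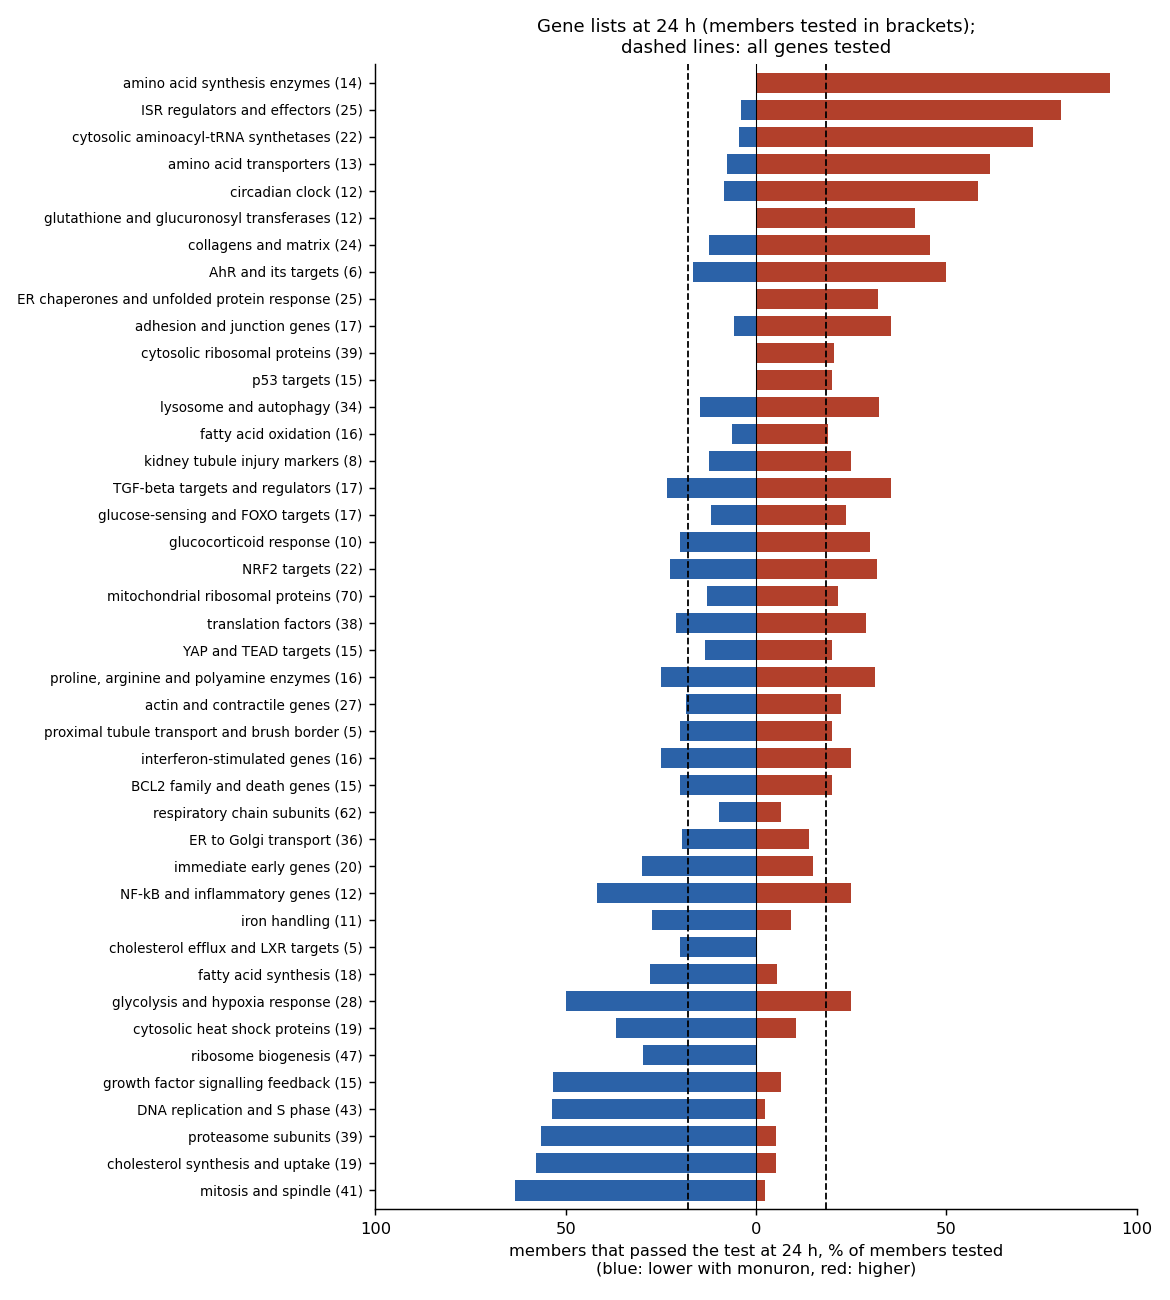
Share of the tested members of each of the 42 gene lists that were higher (red, to the right) or lower (blue, to the left) at 24 h, in percent of members tested, with the number tested in brackets and dashed lines at the shares over all genes tested (18.3% higher and 17.9% lower). Amino acid synthesis lies at the top with 13 of 14 members higher, and mitosis at the bottom with 26 of 41 members lower.

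Proteasome subunit genes, whose products degrade ubiquitinated proteins, were more often lower than higher. Of 39 tested 22 were lower and 2 higher, with a median of -0.22. The fit of 18 arrays called 19 lower and 1 higher. Psmc4, an ATPase of the regulatory particle, was 11.44, 11.43 and 11.44 with monuron against 12.01, 12.03 and 11.82 with DMSO (difference -0.52, SE 0.063, adjusted p = 0.000386). Psmb3, of the core particle, was 12.17, 12.30 and 12.21 with monuron against 12.64, 12.68 and 12.62 with DMSO (difference -0.42, SE 0.051, adjusted p = 0.000352). Psmc1 and Psmc3 fell by 0.34 and 0.39 and Psma3, of the core particle, by 0.67. The 2 members that rose were Psmb8, at 1.06, and Psmb9, at 0.22, interferon-inducible subunits of the immunoproteasome, and Psmb9 kept the call in 1 of the 6 fits without 1 array. Psmb10, another such subunit, differed by -0.21 (adjusted p = 0.358). Of 19 cytosolic heat shock protein genes 7 were lower and 2 higher, with a median of -0.05, against 5 and 1 in the fit of 18 arrays. In the fit of 6 arrays that is 36.8% lower and 10.5% higher, against 17.9% and 18.3% of all genes tested. Dnajb1, Dnaja1 and Hsph1, cochaperones of HSP70, fell by 0.53, 0.39 and 0.61. Hspa9, the mitochondrial HSP70, rose by 0.62. Hspa4 fell by 1.12, with an adjusted p of 0.165 in the fit of 18 arrays.

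Of 28 glycolysis and hypoxia response genes tested 14 were lower and 7 higher, with a median of -0.19, and the fit of 18 arrays called 8 lower and 2 higher. Ldha, lactate dehydrogenase A, was 13.09, 13.04 and 13.18 with monuron against 13.79, 13.74 and 13.76 with DMSO (difference -0.66, SE 0.047, adjusted p = 3.06e-05). Tpi1, triosephosphate isomerase, was 12.52, 12.54 and 12.53 with monuron against 13.26, 13.23 and 13.20 with DMSO (difference -0.70, SE 0.042, adjusted p = 1.03e-05). In both the groups lay apart by at least 0.5. Eno1, enolase, fell by 0.52, Gpi, the second enzyme of the pathway, by 0.48, and Higd1a, a hypoxia-induced mitochondrial protein, by 0.83. Further hypoxia-responsive members also fell, Ankrd37 by 1.03 and Egln1, the oxygen-sensing hydroxylase, by 0.59. The members that rose included Vegfa, the endothelial growth factor, at 0.67, Hk2, a hexokinase, at 0.66 and Eno2 at 0.65, and of these Vegfa (adjusted p = 0.233) and Hk2 (adjusted p = 0.441) were not called in the fit of 18 arrays. Of 17 glucose-sensing and FOXO targets 4 were higher and 2 lower (1 without monuron replicate 2), with a median of 0.14. That is 23.5% and 11.8%, against 18.3% and 17.9% of all genes tested, and the fit of 18 arrays called 3 higher and 0 lower. The increases included Klf15 and Arrdc3, an arrestin-like regulator, which rose by 1.01.

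Sterol and fatty acid synthesis genes leaned lower. Of 19 cholesterol synthesis and uptake genes tested 11 were lower and 1 higher, with a median of -0.29, and the fit of 18 arrays called 1 lower. Sqle, squalene epoxidase, was 11.98, 12.02 and 12.00 with monuron against 12.66, 12.64 and 12.76 with DMSO. Its groups differed by -0.68 (SE 0.049, adjusted p = 3.06e-05), with an adjusted p of 0.17 in the fit of 18 arrays. Srebf2, the transcription factor that drives the pathway, fell by 0.58 and is the decrease called in the fit of 18 arrays, with an adjusted p of 0.0139. Insig1, a sterol-sensing inhibitor of that factor, differed by -0.05 (adjusted p = 0.644), and Dhcr7, the last enzyme of the pathway, was higher by 0.35 (adjusted p = 0.64 in the fit of 18 arrays). Of 18 fatty acid synthesis genes 5 were lower and 1 was higher, with a median of -0.10, against 2 lower and 0 higher in the fit of 18 arrays. Shares in the fit of 6 arrays were 27.8% lower and 5.56% higher, against 17.9% and 18.3% of all genes tested. Fasn, fatty acid synthase, was 11.06, 11.10 and 11.00 with monuron against 11.86, 11.82 and 11.68 with DMSO (difference -0.73, SE 0.061, adjusted p = 5.55e-05). Acaca, acetyl-CoA carboxylase, fell by 0.70 and Acly, ATP citrate lyase, by 0.44. Among 16 fatty acid oxidation genes 3 were higher, with Pdk4, which holds back pyruvate oxidation, at 0.98, and 1 was lower, and the fit of 18 arrays called 2 higher and 0 lower. The decrease was not called without monuron replicate 2 or 3 or without DMSO replicate 1 or 2. The 3 increases are 18.8% of the 16 genes, against 18.3% of all genes tested. Among 5 genes of cholesterol efflux and LXR 0 were higher and 1 was lower (2 without monuron replicate 3 and 0 in the fit of 18 arrays). That decrease is 20% of the 5 genes, against 17.9% of all genes tested.

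Among 11 iron handling genes 1 was higher and 3 were lower, against 1 and 2 in the fit of 18 arrays. In the fit of 6 arrays that is 9.09% and 27.3%, against 18.3% and 17.9% of all genes tested. Besides Tfrc, the iron importer Slc11a2 fell by 0.84 (SE 0.095, adjusted p = 0.000256) and the cytosolic aconitase Aco1, which doubles as an iron sensor, by 0.16 (adjusted p = 0.0433), the last in none of the 6 fits without 1 array. Steap3, the reductase of transferrin-bound iron, rose by 1.33 (SE 0.144, adjusted p = 0.000217). The other 7 members tested did not pass.

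Feedback inhibitors of growth factor signalling were mostly lower. Of 15 tested 8 were lower and 1 was higher, with a median of -0.31, and the fit of 18 arrays called 3 lower and 1 higher. Dusp6, the ERK phosphatase, was 7.26, 7.13 and 7.30 with monuron against 8.44, 8.30 and 8.57 with DMSO (difference -1.21, SE 0.104, adjusted p = 6.68e-05), with an adjusted p of 0.0596 in the fit of 18 arrays. Spry2 and Spry1, inhibitors of receptor tyrosine kinase signalling, fell by 0.41 and 0.39. Of 20 immediate early genes 6 were lower and 3 higher, with a median of 0, and the fit of 18 arrays called 2 lower and 1 higher. Shares in the fit of 6 arrays were 30% lower and 15% higher, against 17.9% and 18.3% of all genes tested. Egr2 fell by 0.91, Dusp1, a phosphatase of stress kinases, by 0.61 and Junb by 0.35. Fos differed by 0.02 (adjusted p = 0.875) and Egr1 by -0.03 (adjusted p = 0.858).

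**Figure D4:**
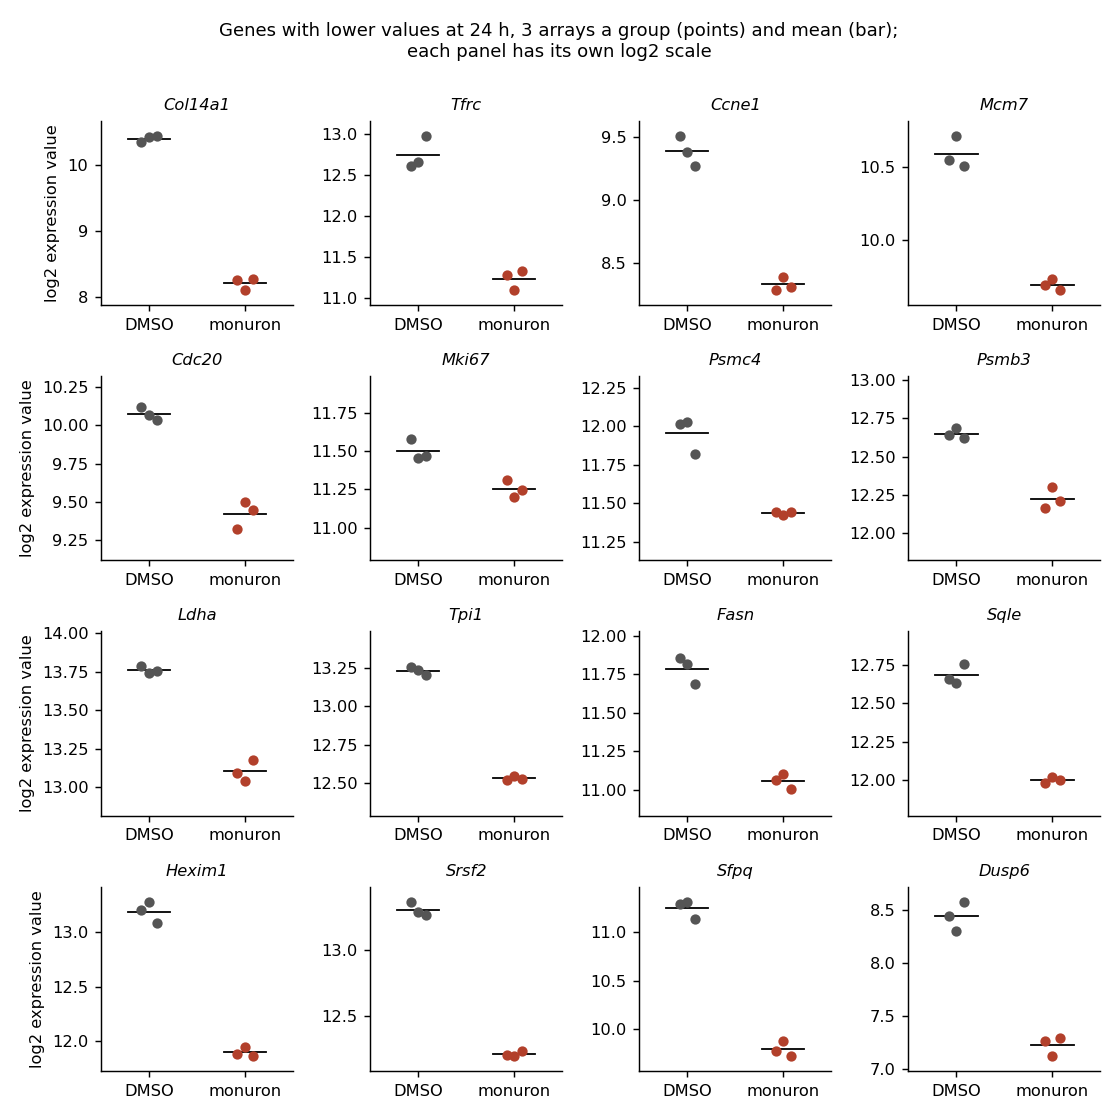
Log2 expression values of 16 genes that were lower at 24 h on the 3 DMSO arrays (grey) and the 3 monuron arrays (red), with the group mean as a bar and a scale of its own in each panel. The genes were picked because they were lower, and in each panel every monuron value lies below every DMSO value. Over all genes tested the groups did not overlap for 49.7%. The differences run from -0.25 for Mki67 to -2.20 for Col14a1.

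Matrix genes were mixed, with fibrillar collagen chains among the increases. Of 37 collagen and matrix genes 24 were tested, 11 were higher and 3 lower, with a median of 0.19. The number higher was 5 without DMSO replicate 1, 7 without monuron replicate 1, 8 to 12 without 1 of the others and 4 in the fit of 18 arrays. Col1a2, a type I collagen chain, was 8.82, 8.96 and 8.76 with monuron against 8.14, 8.17 and 8.29 with DMSO (difference 0.64, SE 0.089, adjusted p = 0.000698), and Timp3, an inhibitor of matrix proteases, rose by 0.60. Postn, periostin, rose by 0.41. The mesenchymal markers, which share Col1a1, Col1a2 and Col3a1 with this list, had a higher summed level on each monuron array than on any DMSO array (91.2 to 91.5 against 89.1 to 89.9). Pdgfra, Dcn, Lum and Thy1 were at background. Pdgfrb, above the median on 1 array and not tested, enters the sum at 3.743, 3.695 and 4.277 with monuron against 3.565, 3.31 and 3.351 with DMSO. The part of these markers in the result was not tested. Col3a1 and Col12a1 fell by 0.20 and 0.32, beside Col14a1. Among 17 adhesion and junction genes 6 were higher (35.3%) and 1 was lower (5.88%), against 18.3% and 17.9% of all genes tested. The fit of 18 arrays called 2 and 0. The increases included the laminin chains Lamb3 and Lama3 at 0.76 and 0.83. Neither was called in the fit of 18 arrays (adjusted p = 0.329 and 0.0895). Of 27 actin and contractile genes 6 were higher (22.2%) and 5 lower (18.5%), against 18.3% and 17.9% of all genes tested, with a median of 0.01. Without DMSO replicate 1 or without monuron replicate 2 there were 3 higher and 2 or 3 lower. The number lower was 3 without monuron replicate 1, and the fit of 18 arrays called 0 higher and 1 lower. Acta1, skeletal muscle actin, rose by 1.21 (adjusted p = 0.211 in the fit of 18 arrays) and Flna, filamin A, fell by 0.36. Of 15 YAP and TEAD targets 3 were higher and 2 lower, against 2 and 1 in the fit of 18 arrays. In the fit of 6 arrays that is 20% and 13.3%, against 18.3% and 17.9% of all genes tested. Ccn2, the best known of them, rose by 0.18 (adjusted p = 0.0254) and kept the call in 2 of 6 fits without 1 array, and Ajuba fell by 0.46.

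Of 47 ribosome biogenesis genes 14 were lower and 0 higher, with a median of -0.16. The number lower was 7 without monuron replicate 2, 8 without DMSO replicate 1, 9 without DMSO replicate 2, 10 to 16 without 1 of the others and 7 in the fit of 18 arrays. Fbl, the rRNA methyltransferase fibrillarin, fell by 0.40 (SE 0.072, adjusted p = 0.00263), Utp4, of the small subunit processome, by 0.38 and Rrp12 by 0.59. Of 39 cytosolic ribosomal protein genes tested 8 were higher (20.5%, against 18.3% of all genes tested) and 0 lower, with a median of 0.08. The number higher was 2 without DMSO replicate 1, 3 and 4 without monuron replicates 2 and 3, and 6 to 8 without 1 of the others, and it was 4 in the fit of 18 arrays. The largest of these increases was that of Rpsa, at 0.28 (SE 0.042). Of 38 translation factor genes 11 were higher and 8 lower (5 lower without DMSO replicate 1), and the fit of 18 arrays called 6 in each direction. Shares in the fit of 6 arrays were 28.9% and 21.1%, against 18.3% and 17.9% of all genes tested. Eif4ebp1, the translation repressor that mTORC1 inactivates, rose by 0.70 and Eif4b by 0.63, and neither was called in the fit of 18 arrays (adjusted p = 0.0661 and 0.0622). Eif2b2, a subunit of the exchange factor of eIF2, fell by 0.50. Of 70 mitochondrial ribosomal protein genes 15 were higher (7 without monuron replicate 2) and 9 lower (5 without DMSO replicate 1), against 5 and 2 in the fit of 18 arrays. In the fit of 6 arrays that is 21.4% and 12.9%, against 18.3% and 17.9% of all genes tested. Of 62 respiratory chain subunit genes 4 were higher and 6 lower (2 without monuron replicate 1 or without DMSO replicate 1), against 3 and 1 in the fit of 18 arrays. Their shares in the fit of 6 arrays, 6.45% and 9.68%, lie below the 18.3% and 17.9% of all genes tested.

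Hexim1, Sfpq and Srsf2 are named because their difference moved downward between 6 h and 24 h, so their values at 24 h are a description. Hexim1, the inhibitor of the elongation kinase P-TEFb, was 11.88, 11.94 and 11.86 with monuron against 13.20, 13.28 and 13.09 with DMSO (difference -1.30, SE 0.057, adjusted p = 1.35e-06). Sfpq, a paraspeckle splicing factor, was 9.77, 9.87 and 9.73 with monuron against 11.29, 11.31 and 11.13 with DMSO (difference -1.45, SE 0.07, adjusted p = 2.43e-06). Srsf2, a serine and arginine rich splicing factor, was 12.20, 12.20 and 12.24 with monuron against 13.36, 13.29 and 13.26 with DMSO (difference -1.09, SE 0.046, adjusted p = 1.1e-06). In all 3 genes the arrays of a group lay within 0.20 of each other.

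Arginine enzymes moved in opposite directions. Arg2, the mitochondrial arginase, was 7.71, 7.48 and 7.73 with monuron against 4.60, 4.51 and 4.97 with DMSO, 7.69-fold higher (difference 2.94, SE 0.154, adjusted p = 4.25e-06). Arg1, the cytosolic arginase, was 11.46, 11.47 and 11.55 with monuron against 11.95, 12.11 and 12.22 with DMSO. It fell by 0.60 (SE 0.07, adjusted p = 0.00031), with an adjusted p of 0.178 in the fit of 18 arrays. Of the 16 proline, arginine and polyamine enzymes tested 5 were higher (3 without monuron replicate 2 or without DMSO replicate 1) and 4 lower, against 1 and 1 in the fit of 18 arrays. Shares in the fit of 6 arrays were 31.2% and 25%, against 18.3% and 17.9% of all genes tested. Amd1, which supplies polyamine synthesis, fell by 0.39. Arg2 had no promoter entry.

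The same contrast at 6 h and 72 h was read on other arrays with their own DMSO controls. At 6 h 1371 of 8848 genes (15.5%) passed, 637 higher (7.2%) and 734 lower (8.3%), and at 72 h 3707 of 8858 (41.8%), 1840 higher (20.8%) and 1867 lower (21.1%). The 6 h count was 276 without monuron replicate 2, 426 without monuron replicate 3, 696 without DMSO replicate 2 and 568 in the fit of 18 arrays. At 72 h DMSO replicate 3 had the largest mean absolute deviation from its group (0.259, against 0.11 to 0.227), and the count was 4659 without it, 2136 without monuron replicate 2, 2002 without monuron replicate 3 and 1708 without DMSO replicate 2. Of the genes higher at 24 h and tested at both times, 275 of 1588 (17.3%) were also higher at 6 h and 42 lower. They make up 43.4% of the 633 genes higher at 6 h. Of those lower at 24 h, 324 of 1580 (20.5%) were lower at 6 h, or 44.6% of the 726 lower there. At 72 h 633 of 1615 (39.2%) were higher and 134 lower, and 700 of 1564 (44.8%) were lower and 101 higher. They make up 35.3% of the 1795 genes higher and 37.6% of the 1863 genes lower at 72 h.

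The monuron difference itself changed between 6 h and 24 h for 1634 of 8957 genes (18.2%), upward for 871 (9.72%) and downward for 763 (8.52%). The count was 110 in the fit of 18 arrays, and it was 1071 without monuron 6 h replicate 2, 1020 without monuron 24 h replicate 2 and 986 without DMSO 24 h replicate 1. With arrays centred on their medians 68.3% of the calls were upward, against 53.3%. Cholesterol genes had a lower median difference at 6 h than at 24 h. There 18 of 19 were lower with a median of -1.37, and the difference moved upward by 24 h for 17 of the 19 and downward for 0. Dhcr7 went from -1.35 to 0.35 (change 1.70, SE 0.098, adjusted p = 1.34e-07). Fdps, farnesyl diphosphate synthase, went from -1.35 to -0.11 and Idi1, isopentenyl diphosphate isomerase, from -1.56 to -0.34. Insig1 went from -1.54 to -0.05 (adjusted p of the change = 3.55e-05).

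Amino acid stress genes already differed at 6 h. Of the 25 ISR genes 14 were higher at 6 h, with a median of 0.50, and the change to 24 h was upward for 11 and downward for 3. Asns went from 0.53 to 1.57 (adjusted p of the change = 8.33e-06), Ddit3 from 0.99 to 1.80 (adjusted p = 0.00195) and Nupr1 from 0.63 to 1.72 (adjusted p = 3.98e-05). Atf4 went the other way, from 1.37 to 0.78 (adjusted p = 0.0016), and so did Chac1, from 3.25 to 2.44 (adjusted p = 0.0157). Slc7a11 was at 2.81 and 2.64 (adjusted p of the change = 0.751). Among replication genes 3 of 43 were lower at 6 h with a median of -0.09, and the difference moved downward for 15 and upward for 0. Among mitosis genes it moved downward for 13 of 41 and upward for 1. Ifi27l2b went from -0.20 to 3.93, a change of 4.13 (SE 0.238, adjusted p = 1.34e-07). Col14a1, Tfrc, Sfpq, Hexim1 and Srsf2 went from -0.52, -0.12, -0.18, -0.31 and -0.23 to -2.20, -1.51, -1.45, -1.30 and -1.09, each with an adjusted p of 8.33e-06 for the change.

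Between 24 h and 72 h the difference changed for 2815 of 8975 genes (31.4%), upward for 1360 (15.2%) and downward for 1455 (16.2%), and for 4084 genes without DMSO 72 h replicate 3. With centred arrays 56.8% of the calls were upward, against 48.3%. The lists below are given with and without that array. ER chaperones, at a median of 0.10 at 24 h, stood at 1.03 at 72 h (1.19 without the array), and the change was upward for 15 of 25 (18 without it). ER to Golgi transport genes, of which 5 were higher and 7 lower at 24 h with a median of -0.04, moved upward for 24 of 36 (27 without it). Their 24 h counts were 2 higher without DMSO replicate 1, 1 to 3 lower in each fit without 1 array other than DMSO replicate 3, and 1 higher and 0 lower in the fit of 18 arrays. In the 24 h fit of 6 arrays 13.9% were higher and 19.4% lower, against 18.3% and 17.9% of all genes tested. Ribosome biogenesis genes moved from a median of -0.16 to 0.58 (0.60 without it), upward for 36 of 47 (38 without it), and proteasome genes moved from -0.22 to 0.08 (0.05 without it), upward for 13 of 39 (15 without it). Mitosis genes moved further down, from -0.36 to -1.06 (-0.99 without it), downward for 16 of 41 in both cases. Among ISR genes the change was upward for 3 of 25 with the array and for 17 without it, and among amino acid synthesis enzymes for 0 of 14 with it and 13 without it. Cholesterol genes had a median of -0.42 at 72 h with the array and 0.31 without it. Tfrc reached -4.10 (-3.52 without it) and Col14a1 -6.04 (-6.20 without it). The monuron values of Col14a1 at 72 h were 2.30, 3.78 and 2.27, close to background.

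**Figure D5:**
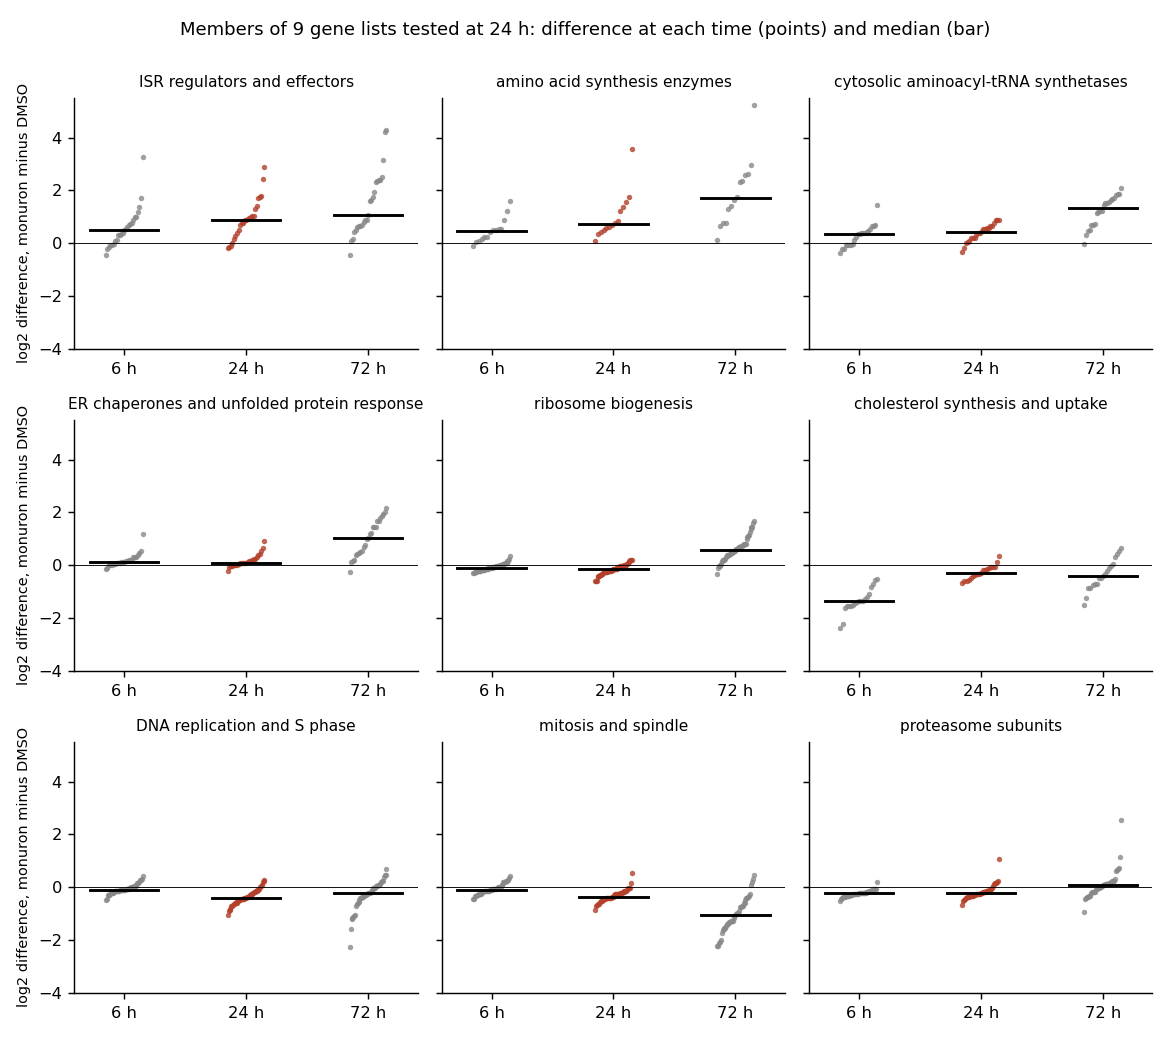
Log2 difference between monuron and DMSO at 6 h, 24 h (red) and 72 h (vertical axis) for the tested members of 9 gene lists, each point a gene and each bar the median, with DMSO 72 h replicate 3 included. The medians of ISR, amino acid synthesis and tRNA synthetase genes lie above 0 at all 3 times, those of ER chaperones and ribosome biogenesis genes are highest at 72 h, and that of cholesterol genes is lowest at 6 h, at -1.37.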

How the data were processed

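The deposited values are log2 expression values of 31099 probe sets on Affymetrix rat arrays, made by the authors with GCRMA per the submitters' processing notes. For the software version and probe set definitions, the sources used here give nothing. A probe set was named where the platform table gave it 1 symbol (20826, with 436 giving several and 9780 none), and of several probe sets for a gene the one brightest on average across the 18 cell arrays was used. The 24 h comparison used limma 3.58.1 in R 4.3.3 with lmFit and eBayes (trend) on the 6 arrays, with Benjamini-Hochberg adjustment, and every adjusted p in the text is from limma. The change between 2 times was an interaction term in a fit of their 12 arrays. Alternatives were other arrays in the fit, filters, normalisations, probe set rules, a replicate block and each array left out. The script was tested on simulated data with 8868 genes for the 24 h comparison, where it recovered 71.6%, 88.1% and 98.5% of genes shifted by 0.5, 1 and 2 on the log2 scale and called 0.0808% of the unshifted genes. Only 67, 67 and 66 genes were shifted and the values were drawn independently, whereas 36.2% of genes passed in the data. These shares therefore do not carry over to the genes called here. Genes are named where they are among the 12 largest differences in a direction, the 4 members of a list with the smallest adjusted p, a panel, or the 5 strongest interactions in a direction. The 12 largest were taken from genes that passed with every array left out in turn. Their groups also had to be free of overlap, with all 3 values of the higher group above the array median. These traits are therefore conditions of the choice. The comparison, the 42 gene lists, which hold 1251 distinct genes of which 935 were tested, and the panel were chosen with earlier results of these data known.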

Additional observations from a re-analysis of the deposited data

Results flagged for a closer look

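The monuron difference was tested for a change between times, and 1634 genes differed between 6 h and 24 h and 2815 between 24 h and 72 h. The values here are log2 changes of the difference, later minus earlier, for the 5 genes in each direction with the smallest limma adjusted p. From 6 h to 24 h the change was 4.13 for Ifi27l2b, 1.70 for Dhcr7, 1.24 for Fdps, 1.04 for Asns and 1.22 for Idi1. It was -0.99 for Hexim1, -0.87 for Srsf2, -1.39 for Tfrc, -1.27 for Sfpq and -1.67 for Col14a1.

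From 24 h to 72 h the change was 5.76 for the hormone Fgf21 (5.90 without DMSO 72 h replicate 3), 1.68 for Sar1a, the GTPase of ER export vesicles (1.74 without it), and 3.47 for the myosin light chain Myl9 (3.43 without it). It was 2.14 for the Golgi transport gene Golt1b (2.26 without it) and 3.95 for the ER-shaping gene Reep6 (3.98 without it). Downward, it was -2.02 for the lysosomal galactosidase Gla (-2.03 without it), -2.80 for the aldehyde dehydrogenase Aldh3b1 (-2.90 without it) and -3.54 for the matricellular gene Ccn5 (-3.57 without it). For Abhd14b it was -1.58 (-1.64 without it) and for Limd2 -2.38 (-2.48 without it).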

How the results depend on the processing

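In a fit of all 18 cell arrays the number of genes called was 1221 at 24 h, 110 for the change from 6 h to 24 h and 568 at 6 h, while it was 5532 at 72 h and 3429 for the change from 24 h to 72 h. The cause was not tested. With 1 array left out in turn the count ran from 2058 to 3424 at 24 h, from 986 to 1856 for the change from 6 h to 24 h, from 1974 to 4084 for that from 24 h to 72 h, from 276 to 1378 at 6 h and from 1708 to 4659 at 72 h. At 24 h same-numbered arrays had deviations correlated at -0.117, -0.122 and 0.137, and pairs with unlike numbers at -0.311 to 0.416. With 3 arrays a group these values cannot decide whether the replicate numbers mark a shared study. A fit with the replicate number as a block called 3049 genes at 24 h (3212 without it). It called 2284 for the change from 6 h to 24 h (1634 without it) and 3129 for that from 24 h to 72 h (2815 without it). At 24 h the count was 2757 with no filter on dim probe sets, 2280 with a filter at the 75th percentile, 3018 with centred arrays, 3437 after quantile normalisation and 2936 without the trend. The alternatives were also read for the named genes and for the count of genes changed at least 2-fold. There 2945 values were unchanged, 130 lost the call and 11 gained it, and 1 value of the count moved by more than 1.5 times. For a gene, unchanged means the same side of the threshold. No gene called in either fit turned direction, while a gene called in neither could do so and still be counted as unchanged. The fit of 18 arrays accounted for 71 of the lost calls and the fit without DMSO 24 h replicate 1 for 11. Signal near background limits the size of differences for genes below the array median in 1 group.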

Other observations

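Of 16 interferon-stimulated genes tested 4 were higher (1 without monuron replicate 1 or 2 or DMSO replicate 1) and 4 lower (2 without monuron replicate 1), with a median difference of -0.04 and 1 in each direction in the fit of 18 arrays. The immunoproteasome gene Psmb8 and Bst2, which tethers viruses, rose by 1.06 and 0.58, while Isg15, a ubiquitin-like modifier, and Mx2, an antiviral GTPase, fell by 1.04 and 1.11. Mx2 had an adjusted p of 0.0982 in the fit of 18 arrays. Of 12 NF-kB and inflammatory genes 3 were higher and 5 lower, with a median of -0.10. The number lower was 2 without DMSO replicate 1 and 3 without DMSO replicate 2 or without any 1 monuron array, and the fit of 18 arrays called 1 higher and 2 lower. Ptgs2, cyclooxygenase 2, rose by 1.20 (adjusted p of 0.0596 in the fit of 18 arrays), and the feedback inhibitor Tnfaip3 and the chemokine Cxcl1 fell by 0.62 and 0.88. Of 17 TGF-beta genes 6 were higher (2 without monuron replicate 1 or 2 or DMSO replicate 1) and 4 lower, against 2 and 1 in the fit of 18 arrays, with Tgfb1, the ligand, at 0.78 and Inhba, an activin subunit, at -1.15. Over all genes tested 18.3% were higher and 17.9% lower. The shares were 25% and 25% for interferon-stimulated genes, 25% and 41.7% for NF-kB genes and 35.3% and 23.5% for TGF-beta genes.

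Of 34 lysosome and autophagy genes 11 were higher and 5 lower (0 without DMSO replicate 1, 2 without monuron replicate 2 or DMSO replicate 2, 3 without monuron replicate 3), with a median of 0.04, against 6 and 1 in the fit of 18 arrays, and Naglu, a lysosomal glycosidase, rose by 0.85 while Ulk1, the kinase that starts autophagy, fell by 0.44. Of 15 BCL2 family and death genes 3 were higher (1 without monuron replicate 1 or 2 or DMSO replicate 2) and 3 lower, against 0 and 1 in the fit of 18 arrays, with the pro-apoptotic Bbc3 at 0.49 and the protective Mcl1 at -0.49. Among 10 glucocorticoid response genes 3 were higher (1 without monuron replicate 1 or 2 or DMSO replicate 1) and 2 lower (1 without DMSO replicate 1), against 1 and 1 in the fit of 18 arrays, and Klf9 rose by 0.57. Of 8 kidney injury markers tested 2 were higher (4 without DMSO replicate 3) and 1 was lower (0 without monuron replicate 2 or DMSO replicate 1), against 0 and 0 in the fit of 18 arrays, with Cd44, the hyaluronan receptor, at 1.07 (adjusted p of 0.128 in the fit of 18 arrays). Of 5 proximal tubule transport genes tested 1 was higher and 1 lower, against 0 and 0 in the fit of 18 arrays. Over all genes tested 18.3% were higher and 17.9% lower. The shares were 32.4% and 14.7% for lysosome and autophagy genes, 20% and 20% for BCL2 family genes and 30% and 20% for glucocorticoid genes. They were 25% and 12.5% for injury markers and 20% and 20% for proximal tubule transport genes.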
